A study of Mus musculus with 12 samples.

Results

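The genes described here were 10 receptors, junction proteins and transcription factors of endothelial cells: Kdr, Flt1, Tek, Tie1, Cdh5, Pecam1, Eng, Sox18, Cldn5 and Erg. They were chosen by name from the 41079 genes of the deposited count table, all 10 were found there, and all 10 passed the filter on low counts that left 20771 genes for testing. RNA was sequenced from 12 whole mouse embryos, 4 Mfsd12 knockout, 4 heterozygous and 4 wild-type, each a separate animal from timed matings of heterozygous Mfsd12 parents, with ages from 10.0 to 11.0 days post-fertilization. The product of Mfsd12 sits in the membrane of lysosomes and melanosomes and is needed to bring cysteine into these organelles. The nature of the disrupted allele, the strain and the sex of the embryos were not given in the sources used here. Levels are CPM, the counts of a gene relative to a library total scaled by the TMM method, and embryos are numbered within a genotype in the order of deposition, which pairs nothing.

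Endothelial cells line the blood and lymph vessels, and at mid-gestation the embryo depends on the vessels they build between its own tissues, the yolk sac and the placenta. The receptor kinases of vascular endothelial growth factor (VEGF), Kdr and Flt1, receive the signal that makes these cells form and grow, with Kdr as the main signalling receptor and Flt1 largely as a trap for the ligand. The TIE receptors Tek and Tie1 act later, in the remodelling and stability of vessels, Eng is a co-receptor for bone morphogenetic proteins, Cdh5, Pecam1 and Cldn5 hold endothelial cells together, and Sox18 and Erg are transcription factors of the lineage.

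Promoter sequences are shown for 4 of the genes, because Kdr and Flt1 varied together between embryos, Cldn5 varied in the opposite direction, and Tie1 varied least. The RefSeq promoter table, on build GRCm38.p6, held 7 of the 10 genes with 9 start sites. It held no entry for Cdh5, Pecam1 and Sox18. Each sequence is the 250 bases before the annotated start, 5′ to 3′ on the strand of the gene. Capitals mark AGGAAG and CGGAAG, letters bound by transcription factors of the ETS family such as Erg, on either strand (CTTCCT and CTTCCG are the same letters read on the other strand).
Flt1 (chr5:147726012-147726261, - strand): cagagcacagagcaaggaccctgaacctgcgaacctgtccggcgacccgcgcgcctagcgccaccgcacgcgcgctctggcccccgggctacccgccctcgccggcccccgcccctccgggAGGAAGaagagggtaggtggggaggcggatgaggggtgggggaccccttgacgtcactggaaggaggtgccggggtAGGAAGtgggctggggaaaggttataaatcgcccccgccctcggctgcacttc
Kdr (chr5:75978456-75978705, - strand): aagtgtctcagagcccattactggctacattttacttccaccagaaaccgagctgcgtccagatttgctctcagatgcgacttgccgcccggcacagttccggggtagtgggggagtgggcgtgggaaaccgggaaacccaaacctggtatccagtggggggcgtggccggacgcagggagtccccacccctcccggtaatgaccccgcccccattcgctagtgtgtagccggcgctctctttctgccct
Tie1 (chr4:118489850-118490099, - strand): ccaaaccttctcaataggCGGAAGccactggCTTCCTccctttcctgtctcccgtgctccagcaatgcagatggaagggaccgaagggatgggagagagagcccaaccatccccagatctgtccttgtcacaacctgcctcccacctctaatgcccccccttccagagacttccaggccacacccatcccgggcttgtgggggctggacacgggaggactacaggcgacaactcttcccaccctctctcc
Cldn5 (chr16:18776597-18776846, + strand): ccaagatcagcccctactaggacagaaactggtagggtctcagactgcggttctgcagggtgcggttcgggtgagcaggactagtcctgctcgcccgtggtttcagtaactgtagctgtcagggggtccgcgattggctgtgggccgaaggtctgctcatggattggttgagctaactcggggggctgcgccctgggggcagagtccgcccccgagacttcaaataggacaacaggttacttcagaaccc
In a window from 250 bases before to 50 bases after the start, AGGAAG was found on either strand in 4 of the 7 genes with an entry (Flt1, Tie1, Eng and 1 of 3 start sites of Erg) and in 35.4% of the 32851 promoters of the table. Flt1 held AGGAAG at 129 and 53 bases before the start. Tie1 held CGGAAG at 232 and AGGAAG at 219 bases before it, as well as an AGGAAG after the start that is not printed. CGGAAG, which shares 5 letters with AGGAAG but cannot lie on the same place of a strand, was found in 1 of 7 genes, against 16.9% of all promoters. AACAAT, letters bound by SOX factors such as Sox18, was found in 2 of 7 (Tek and Erg) and in 10.7% of all promoters. ACGTG, 1 form of the core bound by hypoxia-inducible factors, was found in 0 of 7 and in 19.6% of all promoters. The other form, GCGTG, was not searched. The Kdr sequence shown holds it, and the Flt1 sequence shown holds it on the other strand (CACGC). Absence of the core therefore cannot be read from ACGTG. The CG pair, which CGGAAG and ACGTG contain as well, was found in 7 of 7 and in 94.6% of all promoters. The Flt1 window shown holds 23 CG pairs and the Kdr window 16, against 12 in that of Cldn5 and 6 in that of Tie1. The percentages count promoters and the numbers of genes do not, and Erg had 3 start sites. Over the 9 start sites, AGGAAG was found in 4, CGGAAG in 1, AACAAT in 2, ACGTG in 0 and CG in 9. These matches describe letters and not binding.

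Library totals ran from 53133084 to 67977990 counts, and all 10 genes of a list for the main tissues of an embryo passed the filter. Mfsd12 itself was at 2.31 to 3.57 CPM in knockout, 5.91 to 8.84 in 3 heterozygous and 9.38 to 16.2 in wild-type embryos. The library labelled heterozygous 2 held 2.58 CPM, which lies inside the knockout range and goes against its label. Exons of Mfsd12 touch those of Tektip1 on the opposite strand, which had a mean of 73.75 counts against 430 for Mfsd12. Strand was not used in counting, so the Mfsd12 levels can include reads of Tektip1. Several libraries stood apart from the others. The library labelled heterozygous 2 had the highest level of all 10 targets of hypoxia-inducible factors listed, with a summed level of 7943 CPM against 1150 to 3399 in the other 11. Knockout 3 had yolk sac endoderm markers at a sum of 4582 CPM against 61.1 to 692 elsewhere. Wild-type 1 had 8.64% of its counts in globin genes against 0.519% to 5.03% elsewhere. Knockout 4 had the highest summed trophoblast markers, 126 CPM against 5.54 to 29.3, and the lowest stage index, a score of genes that are higher later minus genes that are lower later in development. For knockout against wild-type embryos, the estimates of the 10 genes are also given over fits that leave out 1 embryo at a time.

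Measured per length (CPM per kilobase of the merged exons of a gene), Cdh5 and Pecam1 were the most abundant of the 10 genes and Flt1 the least. Means over the 12 embryos were 17.9 ± 5.29 CPM per kilobase (SD, n = 12) for Cdh5, 17.5 ± 8.84 for Pecam1, 10.88 ± 3.497 for Cldn5 and 10.2 ± 0.956 for Tie1. Lower in the order were Kdr at 8.81 ± 3.34, Eng at 8.64 ± 1.53 and Tek at 6.61 ± 1.39 CPM per kilobase. Erg at 4.86 ± 0.751, Sox18 at 3.43 ± 0.762 and Flt1 at 2.14 ± 1.82 CPM per kilobase closed it. The ranges of all 9 pairs of neighbours in this order overlapped, and for 6 of the 9 the difference of the means was within the larger SD. It was larger for Eng over Tek (higher in 11 of 12 embryos), Tek over Erg (10 of 12) and Erg over Sox18 (12 of 12). Without the library labelled heterozygous 2 (n = 11) Pecam1 was at 15.03 ± 1.71, Cldn5 at 11.39 ± 3.165, Sox18 at 3.56 ± 0.653 and Flt1 at 1.64 ± 0.514 CPM per kilobase. Eng, at 8.42 ± 1.40, then lay above Kdr, at 8.07 ± 2.24. The order and the 6 of 9 pairs given above therefore hold for the 12 embryos only.

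**Figure D1:**
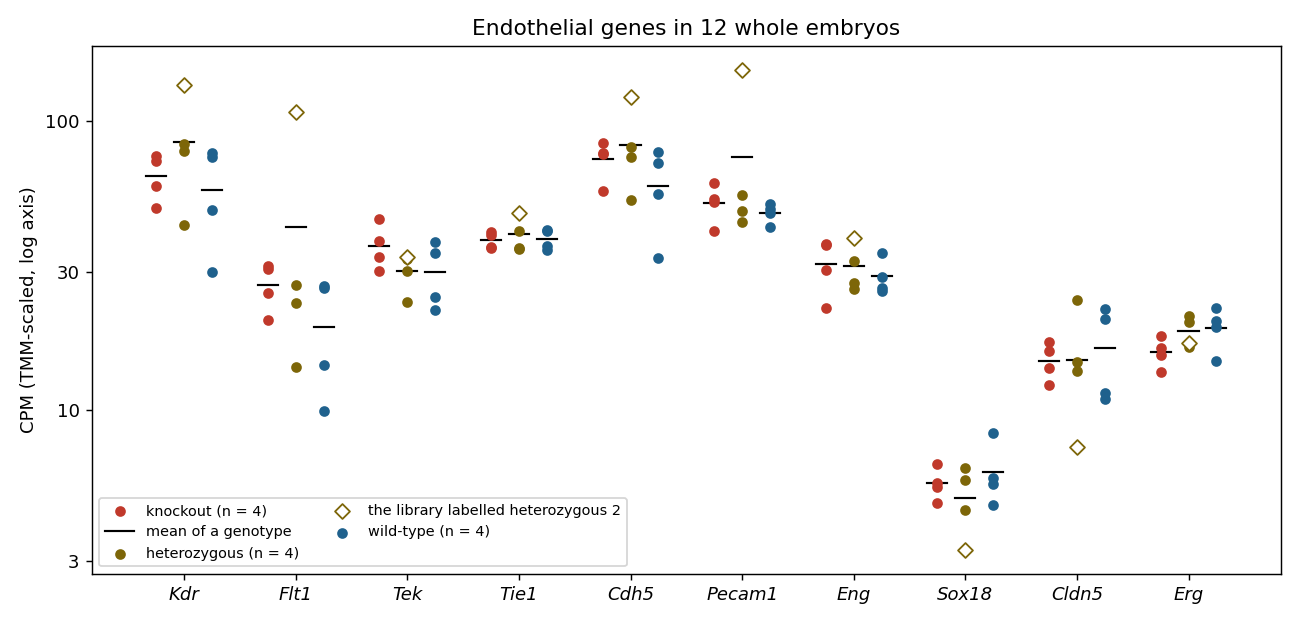
Level of each endothelial gene (CPM, TMM-scaled, log axis) in each of 12 embryos, by genotype. Points are embryos, black lines are means of 4, and the open diamond is the library labelled heterozygous 2, which lies above the other 11 embryos for Kdr, Flt1, Tie1, Cdh5, Pecam1 and Eng and below them for Sox18 and Cldn5.

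The VEGF receptors differed more between embryos of the same genotype than between genotypes. Kdr, the main signalling receptor, was at 72.9, 75.5, 50.2 and 59.5 CPM in knockout 1 to 4, at 43.9, 133, 83.2 and 78.9 in heterozygous 1 to 4 and at 29.97, 49.4, 77.6 and 75.0 in wild-type 1 to 4. The 3 genotypes overlapped, with the highest value in the library labelled heterozygous 2 and the lowest in wild-type 1. Flt1, the decoy receptor, was at 31.5, 30.7, 20.6 and 25.5 CPM in knockout embryos, at 14.1, 107, 23.4 and 27.1 in heterozygous and at 9.92, 14.4, 27.0 and 26.5 in wild-type embryos. Its highest and lowest values fell in the same embryos as those of Kdr. The library labelled heterozygous 2 held 4.22 times the median of the other 11 embryos for Flt1 and 1.82 times for Kdr.

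In knockout against wild-type embryos the log2 difference of Kdr was 0.15 ± 0.33 (SE, 95% interval -0.55 to 0.86, edgeR, adjusted p = 0.899 over all genes). That of Flt1 was 0.48 ± 0.52 (95% interval -0.65 to 1.60, edgeR, adjusted p = 0.794). With 1 embryo left out at a time the estimate for Kdr ran from -0.06 without wild-type 1 to 0.33 without wild-type 3, and that for Flt1 from 0.26 to 0.68 without the same embryos. The intervals therefore include both a lower and a higher level in knockout embryos, for Flt1 from 0.637-fold to 3.04-fold.

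The TIE receptors were the steadier of the receptor kinases. Tek, the receptor of the angiopoietins, was at 38.6, 33.9, 30.3 and 45.8 CPM in knockout, at 23.7, 33.8, 30.3 and 33.4 in heterozygous and at 22.2, 24.7, 35.1 and 38.3 in wild-type embryos. Knockout 4 was the highest and wild-type 1 the lowest, and the genotypes overlapped. Tie1, a co-receptor of Tek, was at 36.8, 41.2, 40.4 and 36.3 CPM in knockout, at 36.2, 48.2, 41.5 and 36.5 in heterozygous and at 36.0, 41.8, 37.1 and 42.1 in wild-type embryos. Its coefficient of variation over the 12 embryos was 9.39%, against 15.5% to 84.96% for the other 9 genes. The log2 differences of knockout against wild-type were 0.30 ± 0.20 for Tek (SE, 95% interval -0.13 to 0.74, edgeR, adjusted p = 0.679) and -0.02 ± 0.13 for Tie1 (95% interval -0.31 to 0.26, edgeR, adjusted p = 0.969). With 1 embryo left out, Tek ran from 0.18 without wild-type 1 to 0.44 without wild-type 4, and Tie1 from -0.06 to 0.02. The interval of Tie1 spans 0.809-fold to 1.201-fold.

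Among the junction proteins, Cdh5 followed Kdr, Pecam1 was raised in 1 library, and Cldn5 went the other way. Cdh5, the cadherin of endothelial adherens junctions, was at 76.9, 84.3, 57.4 and 77.3 CPM in knockout, at 53.4, 121, 81.3 and 75.3 in heterozygous and at 33.7, 55.8, 78.0 and 71.7 in wild-type embryos. As for Kdr, the highest and lowest embryos were the library labelled heterozygous 2 and wild-type 1. Pecam1, an adhesion molecule that platelets and macrophages carry as well, was at 61.1, 52.5, 54.0 and 41.8 CPM in knockout, at 44.8, 150.4, 49.0 and 55.4 in heterozygous and at 43.0, 49.8, 48.1 and 51.7 in wild-type embryos. The other 11 embryos lay within 41.8 to 61.1 CPM. Cldn5, the claudin of endothelial tight junctions, was at 14.03, 17.2, 12.2 and 15.99 CPM in knockout, at 24.1, 7.46, 14.7 and 13.6 in heterozygous and at 20.7, 22.5, 11.5 and 11.0 in wild-type embryos. It was lowest in the library where Kdr and Cdh5 were highest, and highest in heterozygous 1, wild-type 2 and wild-type 1.

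Knockout and wild-type embryos overlapped for the 3 junction genes. The log2 difference of knockout against wild-type was 0.31 ± 0.27 for Cdh5 (SE, 95% interval -0.27 to 0.89, edgeR, adjusted p = 0.748). It was 0.12 ± 0.32 for Pecam1 (95% interval -0.57 to 0.81, edgeR, adjusted p = 0.920) and -0.14 ± 0.32 for Cldn5 (95% interval -0.84 to 0.55, edgeR, adjusted p = 0.905). With 1 embryo left out, Cdh5 ran from 0.11 without wild-type 1 to 0.47 without wild-type 3. Pecam1 ran from 0.04 without knockout 1 to 0.22 without knockout 4, and Cldn5 from -0.29 without wild-type 4 to 0.06 without wild-type 2. Within the title number 4 the 1 knockout embryo lay 0.61 above the mean of 2 wild-type embryos in log2 CPM of Cldn5, and within the title number 18 it lay -0.81 from that mean, so that the sign of this difference depended on which embryos were set side by side.

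Eng, the bone morphogenetic protein co-receptor, was at 37.2, 37.6, 30.5 and 22.5 CPM in knockout, at 26.4, 39.3, 33.0 and 27.5 in heterozygous and at 26.5, 35.02, 25.8 and 28.8 in wild-type embryos. Knockout 4 was the lowest and the library labelled heterozygous 2 the highest. The log2 difference of knockout against wild-type was 0.14 ± 0.19 (SE, 95% interval -0.28 to 0.55, edgeR, adjusted p = 0.835). Without knockout 2 it was 0.05 and without knockout 4 it was 0.28. Exons of Eng overlap those of Fpgs on the opposite strand, which had a mean of 1559 counts against 1851 for Eng. Strand was not used in counting, so reads from the overlap cannot be told apart. The exons of Flt1 touch those of Gm35383 in the same way, with a mean of 62.4 counts against 1701.

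The transcription factors were at low levels. Sox18, which takes part in the start of lymphatic and vascular differentiation, was at 5.63, 6.498, 4.79 and 5.44 CPM in knockout, at 6.30, 3.30, 5.74 and 4.52 in heterozygous and at 5.58, 8.33, 5.82 and 4.71 in wild-type embryos. The library labelled heterozygous 2 was the lowest and wild-type 2 the highest. Erg, an ETS factor that maintains endothelial identity, was at 15.5, 18.1, 16.5 and 13.6 CPM in knockout, at 16.6, 17.1, 20.1 and 21.3 in heterozygous and at 19.5, 22.6, 20.3 and 14.8 in wild-type embryos. Knockout 4 and wild-type 4 were the lowest. The log2 differences of knockout against wild-type were -0.13 ± 0.25 for Sox18 (SE, 95% interval -0.66 to 0.41, edgeR, adjusted p = 0.888) and -0.28 ± 0.17 for Erg (95% interval -0.64 to 0.08, edgeR, adjusted p = 0.662). Without wild-type 2 they were 0.07 and -0.18. Without wild-type 4 that of Sox18 was -0.235, and that of Erg was -0.39 with an unadjusted p of 0.0410 by edgeR. A level in whole-embryo RNA cannot tell fewer endothelial cells from less RNA of a gene per cell.

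**Figure D2:**
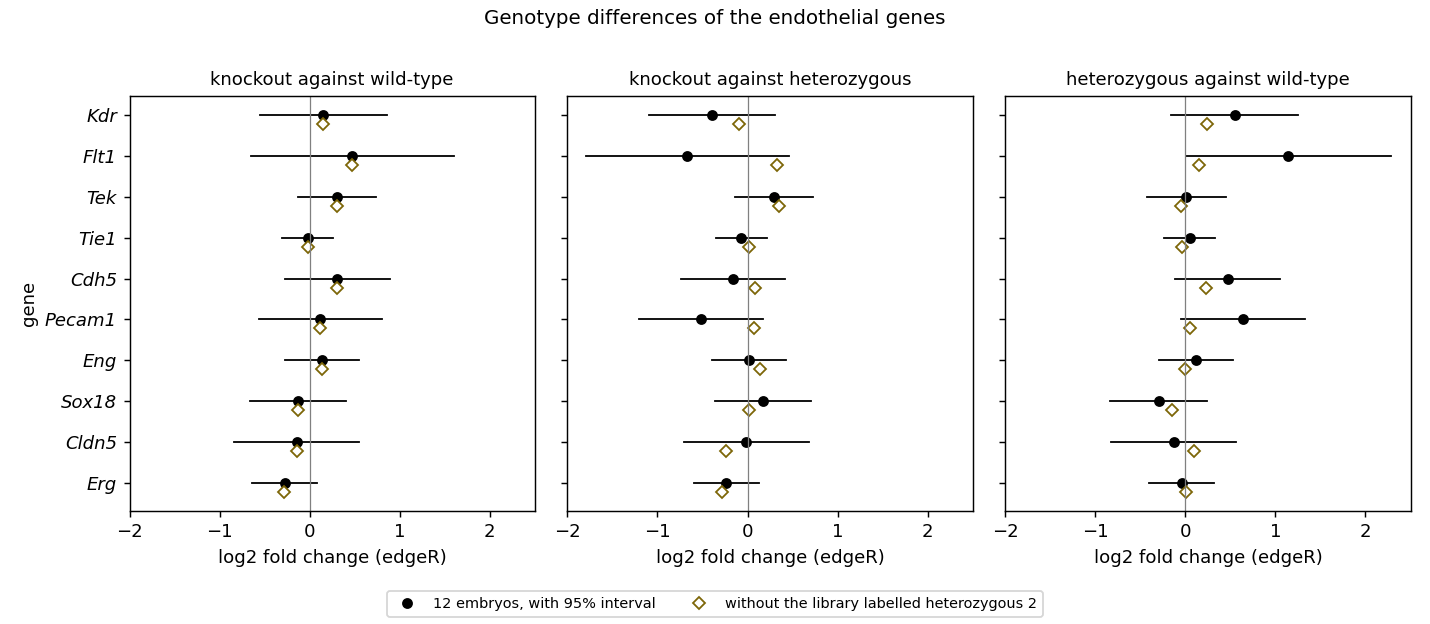
Log2 difference of each gene (x axis) in the 3 genotype comparisons, from the edgeR fit across all genes. Filled points with lines are estimates with 95% intervals from 12 embryos, and open diamonds are estimates without the library labelled heterozygous 2, for which the difference of Flt1 between heterozygous and wild-type embryos was 0.15 in place of 1.14.

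In knockout against wild-type embryos, 0 of the 10 genes passed an adjusted p of 0.05 in edgeR, DESeq2 or limma voom, and 0 of 10 had an unadjusted p under 0.05 in any of the 3 tools, against 8.33% of all genes tested in edgeR. For 0 of 10 the genotypes did not overlap, against 3.43% of all genes. The median log2 difference of the 10 genes was 0.13, with 6 above and 4 below 0, against a median of 0.01 over all genes, of which 51.3% were above 0. The largest estimate was that of Flt1 and the lowest that of Erg. Among the genes of the stage index, 7 of the 7 that rise with age had lower estimates in knockout embryos (median -1.20), 2 of them by unadjusted p. Of the 7 that decline with age, 7 had higher estimates (median 1.70), 3 of them by unadjusted p, and 0 of the 14 passed an adjusted p of 0.05 in edgeR. Without knockout 4 the medians were -0.90 and 0.91, with 2 and 0 genes by unadjusted p. In a fit that also held the stage index, the estimates of Kdr, Flt1, Tek and Pecam1 were -0.15, -0.12, -0.02 and -0.02, and that of Cdh5 0.005, so that 4 of these 5 signs turned. Without the library labelled heterozygous 2, knockout 3 and wild-type 1 the 10 estimates lay between -0.30 for Erg and 0.35 for Flt1, and 0 of 10 had an unadjusted p under 0.05 by edgeR. In exact two-sided permutation tests of 4 against 4 embryos, which can give no p below 0.0286, the lowest p of the 10 genes was 0.143, for Erg.

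The comparison of knockout with heterozygous embryos uses the same knockout embryos, and that of heterozygous with wild-type embryos the same wild-type embryos, so the values are set side by side and not counted as separate evidence. Between knockout and heterozygous embryos 0 of 10 genes passed an adjusted p of 0.05 in the 3 tools. By unadjusted p under 0.05, edgeR, DESeq2 and limma voom gave 0 of 10, against 7.4% of all genes in edgeR. The groups did not overlap for 0 of 10 genes, against 3.44% of all genes. The largest estimates were -0.67 ± 0.52 (SE) for Flt1 and -0.52 ± 0.32 for Pecam1, and without the library labelled heterozygous 2 they were 0.33 and 0.07. Without heterozygous 1 that of Pecam1 was -0.68 and 1 of 10 genes had an unadjusted p under 0.05 by edgeR. Over the fits that left out 1 embryo, 763 to 2447 of all genes did. Tek was at 0.29 ± 0.20 with that library and 0.35 without it, and Erg at -0.24 ± 0.17 and -0.28.

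Between heterozygous and wild-type embryos, Flt1 was the 1 gene of 10 with an unadjusted p under 0.05, against 1.01% of all genes and 0.732% in the higher direction. Its log2 difference was 1.14 ± 0.53 (SE, 95% interval 0.01 to 2.28, edgeR, p = 0.0491 unadjusted and 1.0 adjusted), with an exact two-sided permutation p of 0.371. DESeq2 gave 1 and limma voom 0 of 10 by unadjusted p, and 0 of 10 passed an adjusted p of 0.05 in the 3 tools. The groups did not overlap for 0 of 10, against 0.876% of all genes. The estimate for Pecam1 was 0.64 ± 0.32 (edgeR, adjusted p = 1.0), that for Kdr 0.55 ± 0.33 and that for Cdh5 0.47 ± 0.27. Without the library labelled heterozygous 2 these 4 estimates were 0.15 for Flt1, 0.05 for Pecam1, 0.24 for Kdr and 0.23 for Cdh5. Ddx3y, a gene of the Y chromosome, exceeded 1 CPM in 0 of 4 embryos here labelled heterozygous, against 3 of 4 among knockouts and 3 of 4 among wild-types. With Xist as a covariate the estimates were 1.04 for Flt1, 0.39 for Pecam1, 0.52 for Kdr and 0.435 for Cdh5, and 0 of 10 genes had an unadjusted p under 0.05 by edgeR. Heterozygous 1 had low levels of Kdr, Flt1 and Cdh5. Without it, 4 of 10 genes had an unadjusted p under 0.05 by edgeR. These were Flt1 at 1.42, Pecam1 at 0.81, Kdr at 0.75 and Cdh5 at 0.62. In that fit 701 of all genes had an unadjusted p under 0.05, against 209 with all 12 embryos. The library labelled heterozygous 2 stayed in it.

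The library labelled heterozygous 2 held the highest or the lowest value of 8 of the 10 genes. Kdr, Flt1, Tie1, Cdh5, Pecam1 and Eng were highest and Sox18 and Cldn5 lowest there, while Tek at 33.8 and Erg at 17.1 CPM lay inside the range of the other embryos. Over all genes tested, 17.95% had their highest and 18.72% their lowest value in this library. Vegfa, the ligand of Kdr and Flt1 and itself a target of hypoxia-inducible factors, was at 311 CPM there against 20.3 to 85.6 in the other 11 embryos. Summed pericyte and smooth muscle markers were at 599 CPM against 278 to 375, with 4 of the 8 genes at their highest there. Most of the sum was Acta2, at 353 CPM (85.1 to 205 elsewhere), and Tagln, at 119 (26.8 to 56.3). Pdgfrb, at 81.8 CPM (64.1 to 120.5), Rgs5, at 18.6 (15.6 to 32.1), Cspg4 and Kcnj8 lay inside the ranges of the other embryos. Summed macrophage markers, at 70.5 CPM, and platelet markers, at 101, were inside the ranges of the other embryos (9.21 to 175 and 14.4 to 111), as were trophoblast markers at 22.5 (5.54 to 126). The part of these other signals in the levels of the 10 genes was not tested.

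Wild-type 1 was the opposite case for the receptors. Kdr, Flt1, Tek, Tie1 and Cdh5 had their lowest value there, with Kdr at 0.400 and Flt1 at 0.374 times the median of the other 11 embryos, against 17.92% of all genes with their lowest value in this embryo. Cldn5, at 20.7 CPM, was above its median of 14.4 in the same embryo. Its erythroid markers summed to 73880 CPM against 4610 to 45990 elsewhere, and the part of that share in these values was not tested. In knockout 4, Tek was highest and Pecam1, Eng and Erg were lowest of the 12, and 16.55% and 16.83% of all genes had their highest and lowest value there.

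**Figure D3:**
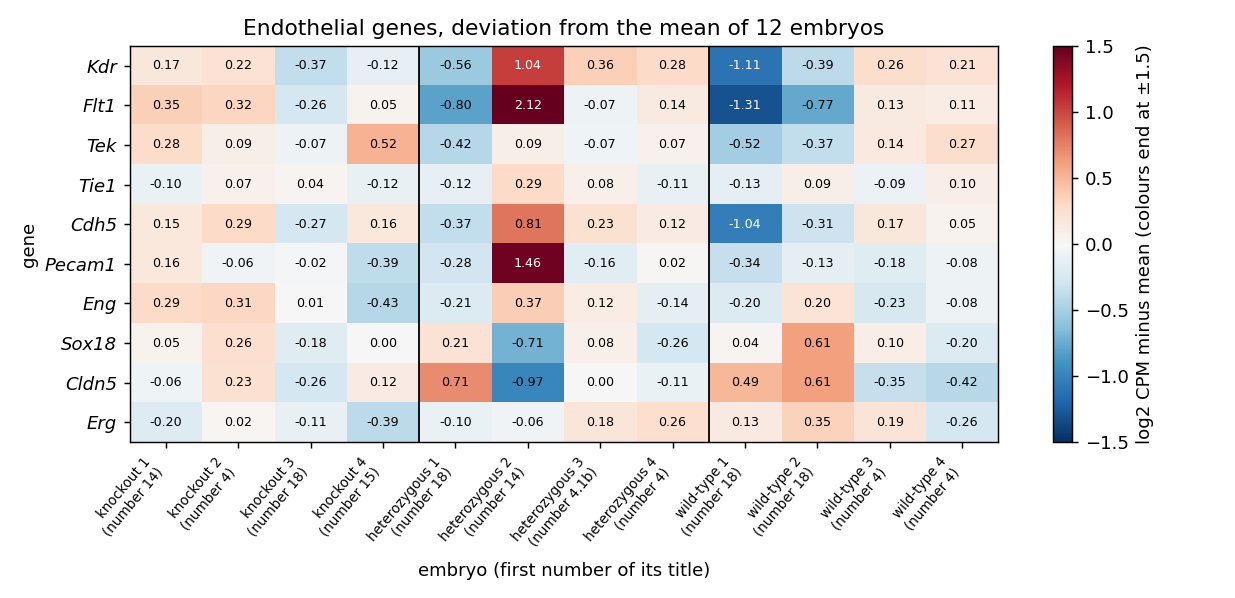
Deviation of each gene in each embryo from its mean over 12 embryos, in log2 CPM, with colours ending at ±1.5 and values printed in the cells. The library labelled heterozygous 2 and wild-type 1 hold most of the strong colours, with Kdr, Flt1 and Cdh5 of 1 sign and Cldn5 of the other in each.

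Kdr, Flt1 and Cdh5 varied together over the embryos, and Cldn5 and Sox18 formed another pair. Over 12 embryos the log2 CPM of Kdr and Cdh5 had a Pearson r of 0.97 (permutation p = 4e-05, adjusted 0.00105 over 45 pairs) and a Spearman rho of 0.86 (permutation p = 0.0006, adjusted 0.027). Without the 2 embryos farthest from the median of Kdr, r was 0.91, and with each genotype centred on its mean it was 0.98. Kdr and Flt1 had an r of 0.92 (permutation p = 6e-05, adjusted 0.00105) and a rho of 0.76 (permutation p = 0.00578, adjusted 0.0650), with an r of 0.84 without the 2 farthest embryos. Flt1 and Cdh5 had an r of 0.92 (permutation p = 7e-05, adjusted 0.00105) and a rho of 0.79 (permutation p = 0.0033, adjusted 0.0650), with an r of 0.89 without the 2 farthest embryos. Without the library labelled heterozygous 2 the r were 0.96, 0.92 and 0.94. The permutations treat the 12 embryos as exchangeable, although Kdr, Flt1 and Cdh5 differed between embryos by the number in their titles, described below. In the 8 embryos of the numbers 4 and 18, with each number centred on its mean, the r were 0.95, 0.85 and 0.87, given as a description.

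Sox18 and Cldn5 had an r of 0.83 (permutation p = 0.00111, adjusted 0.00999) and a rho of 0.71 (permutation p = 0.0115, adjusted 0.0816), with an r of 0.61 without the 2 farthest embryos. Cldn5 ran against Flt1 with an r of -0.84 (permutation p = 0.00073, adjusted 0.00821), a rho of -0.63 (permutation p = 0.0317, adjusted 0.143) and an r of -0.70 without the 2 farthest embryos. It ran against Kdr with an r of -0.79 (permutation p = 0.00265, adjusted 0.0182), a rho of -0.67 (permutation p = 0.0205, adjusted 0.103) and an r of -0.63 without them. Centred within the 2 numbers in the same way, r was 0.67 for Sox18 and Cldn5, -0.455 for Cldn5 and Flt1 and -0.26 for Cldn5 and Kdr. Of the 45 pairs, 10 positive and 4 negative ones passed an adjusted p of 0.05 by Pearson's r, and 1 positive and 0 negative by Spearman's rho. Without the library labelled heterozygous 2 these numbers were 5 and 0 by r and 0 and 0 by rho. Pecam1 and Flt1 had an r of 0.86 (permutation p = 0.00283, adjusted 0.0182) and a rho of 0.71 (permutation p = 0.0118, adjusted 0.0816). Their r was 0.43 without the 2 farthest embryos and 0.58 without the library labelled heterozygous 2. Centred within the 2 numbers, which leaves out that library as well, it was 0.79. The strength of this relation therefore depended on the embryos used. Erg was related to none of the other 9 genes at an adjusted p of 0.05 by r or rho, with r from -0.58 to 0.34. All points share the libraries' scaling, and without TMM factors 5 positive and 1 negative pair passed by r.

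**Figure D4:**
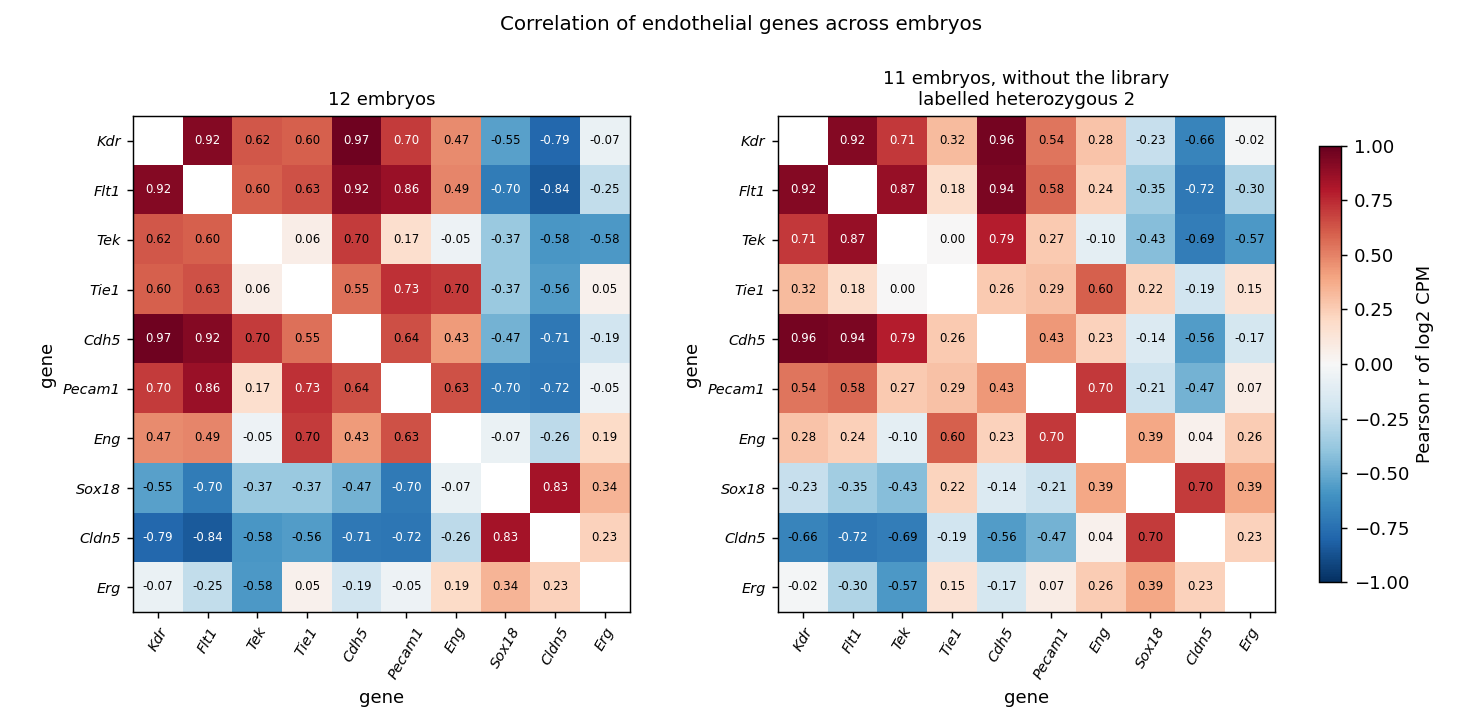
Pearson r of log2 CPM for the 45 pairs of endothelial genes, over 12 embryos (left) and over 11 without the library labelled heterozygous 2 (right), with values in the cells. The pairs of Kdr, Flt1 and Cdh5 have r of 0.92 to 0.97 in both, while the relations of Tie1 and Pecam1 with Flt1 fall from 0.63 and 0.86 to 0.18 and 0.58.

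Set against the mean of the other 9 genes in the same embryo, Flt1 and Cldn5 departed most from the group. The SD of that log2 ratio over 12 embryos was 0.73 for Flt1, 0.70 for Cldn5 and 0.50 for Sox18, and 0.17 for Tie1 and 0.21 for Eng. Relative to its mean ratio, Flt1 was 1.87 higher in the library labelled heterozygous 2 and lowest in wild-type 1, at -1.01. Cldn5 ranged from -1.57 in the library labelled heterozygous 2 to 1.01 in heterozygous 1.

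The sample titles carry a number of unstated meaning, and 4 embryos each shared the numbers 4 and 18, with 1 knockout, 1 heterozygous and 2 wild-type embryos in each. Kdr, Flt1, Tek and Cdh5 were lower in every embryo of number 18 than in every embryo of number 4. Kdr was at 29.97 to 50.2 CPM (median 46.6) against 75.0 to 78.9 (median 76.6), Flt1 at 9.92 to 20.6 against 26.5 to 30.7, Tek at 22.2 to 30.3 against 33.4 to 38.3 and Cdh5 at 33.7 to 57.4 against 71.7 to 84.3. These were 4 of 10 genes, against 10.1% of all genes that were lower in this way and 10.1% that were higher. Tie1, Pecam1, Eng, Sox18, Cldn5 and Erg overlapped between the numbers. Without wild-type 1, which has the number 18, the other 3 embryos of that number held Kdr at 43.9 to 50.2 CPM. Between the numbers, summed macrophage markers did not overlap either (98.2 to 175 CPM in 18 against 30.6 to 71.0 in 4), nor did platelet markers (60.5 to 111 against 33.2 to 49.1) and genes that are lower later in development (13.7 to 37.6 against 52.2 to 281). Summed VEGF ligands and other VEGF receptors did not overlap either (170 to 294 CPM in 18 against 296 to 316 in 4). Genes that are higher later in development did overlap (656 to 974 CPM in 18 against 410 to 786 in 4). So did the stage index, at 0.47 to 2.335 in 18 against -1.44 to 0.54 in 4. The part of these signals in the difference of the 4 genes was not tested.

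**Figure D5:**
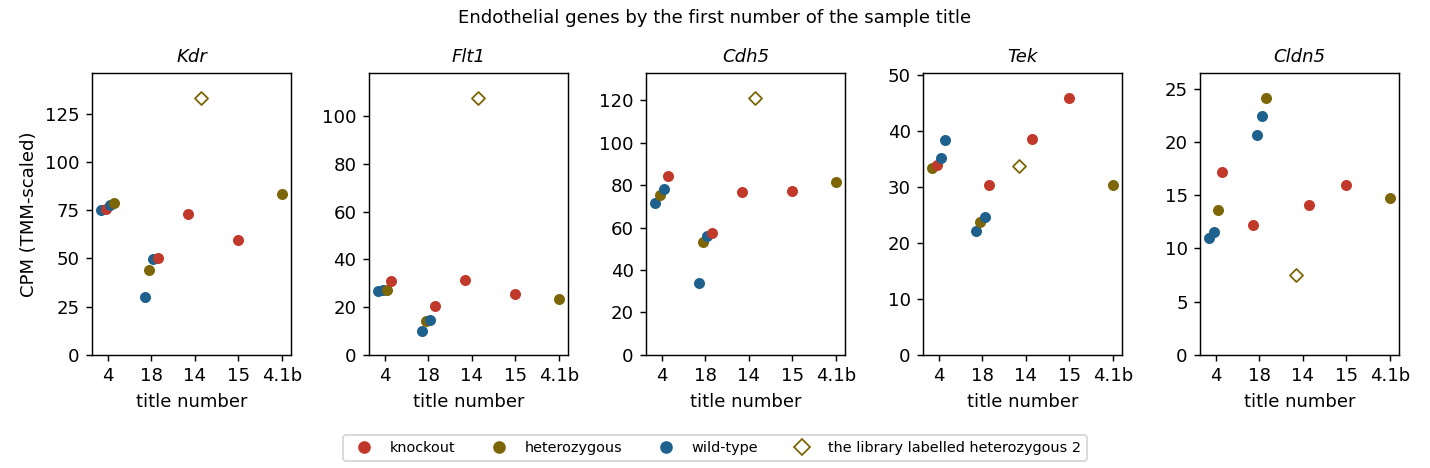
Levels of Kdr, Flt1, Cdh5, Tek and Cldn5 (CPM, linear axes from 0) by the number in the sample title, with 1 point per embryo coloured by genotype. All 4 embryos of number 18 lie below all 4 of number 4 for Kdr, Flt1, Cdh5 and Tek, and the numbers overlap for Cldn5.

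Within a number the knockout embryo was compared with the mean of its 2 wild-type embryos. For Kdr the log2 difference was -0.02 within number 4 and 0.38 within number 18, for Flt1 0.20 and 0.78, for Cdh5 0.17 and 0.40 and for Tek -0.11 and 0.37. With 1 knockout embryo in each there is no test of these values. Between the heterozygous embryo and the wild-type mean, Flt1 differed by 0.02 within number 4 and 0.24 within number 18. Fits against wild-type embryos with the number as a block could use only the embryos of numbers 4 and 18. They left out knockout 1, knockout 4, the library labelled heterozygous 2 and heterozygous 3. Kdr, Flt1, Cdh5 and Tek then differed by 0.15, 0.47, 0.25 and 0.12 between knockout and wild-type embryos. The difference of Flt1 between heterozygous and wild-type embryos was 0.11.

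Other genes of the same pathways were counted by list in knockout against wild-type embryos, where 0 of them passed an adjusted p of 0.05 in edgeR and 8.33% of all genes had an unadjusted p under 0.05 (4.25% higher and 4.08% lower). Of 8 VEGF ligands and other VEGF receptors 0 had an unadjusted p under 0.05, with a median log2 difference of 0.32. Vegfa was at 69.7 ± 16.6 CPM in knockout and 34.9 ± 12.3 in wild-type embryos (SD, n = 4 each), groups that did not overlap, with a log2 difference of 0.999 ± 0.659 (SE, edgeR, adjusted p = 0.678). The large SE belongs to a gene that reached 311 CPM in the library labelled heterozygous 2. Vegfd, a ligand of the lymphatic receptor, differed by 0.45 and the VEGF co-receptors Nrp1 and Nrp2 by 0.435 and 0.07. Without wild-type 1 these were 0.25, 0.24 and -0.10, and that of Vegfa was 0.81.

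Of 7 genes of the angiopoietin pathway 1 was higher by unadjusted p, with a median of 0.13. It was Angpt2, the context-dependent ligand of Tek, at 1.42 ± 0.66 (SE, edgeR, adjusted p = 0.599). Without knockout 4 it differed by 0.12, and blocked on the title number, which also leaves out knockout 1 and knockout 4, by -0.19. Angpt1, the activating ligand of Tek, differed by 0.10, Angpt4 by 0.64 (0.05 without knockout 4) and Foxo1, a factor restrained by Tek signalling, by -0.08. Of 15 genes of the endoglin and bone morphogenetic protein pathway 0 passed by unadjusted p (median 0.03). Among them Smad6 and Smad9 differed by 0.42 and 0.41, and the abundant targets Id2 and Id3 by 0.14 and -0.285. Without wild-type 1 the estimates of Smad6, Smad9 and Id3 were 0.28, 0.27 and 0.05.

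Of 19 other endothelial surface and junction proteins 1 was higher, with a median of -0.03. It was Apln, a peptide of sprouting tip cells, at 0.48 ± 0.22 (SE, edgeR, adjusted p = 0.599), against 0.25 with the stage index as a covariate. Calcrl, a receptor for adrenomedullin, differed by 0.42, and the abundant genes Egfl7 and Cd34 by -0.10 and 0.05. Of 11 Notch and arterial genes 1 was higher, with a median of 0.21. It was the Notch ligand Jag1 at 0.69 ± 0.29 (edgeR, adjusted p = 0.588), against 0.13 with the stage index. The arterial genes Unc5b and Hey1 differed by 0.28 and -0.24, and by 0.11 without wild-type 1 and -0.11 without wild-type 2. Of 7 venous and lymphatic genes 0 passed, with a median of -0.13 and with the venous receptor Ephb4 at -0.22, Pdpn at -0.13 and Lyve1 at -0.79. Ephb4 was at -0.085 without knockout 4, Pdpn at -0.05 without knockout 2, and Lyve1 at -0.42 without wild-type 1 and -1.65 without knockout 3.

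Of 16 endothelial and haemato-endothelial transcription factors 1 was higher and 2 were lower by unadjusted p, with a median of -0.14. The 2 lower ones were Tal1, a factor of blood and endothelial progenitors, at -1.12 ± 0.40 (SE, edgeR, adjusted p = 0.545, groups not overlapping), and its relative Lyl1 at -0.69 ± 0.29 (edgeR, adjusted p = 0.587). Without wild-type 1 these were -0.77 and -0.36. Erythroid cells express Tal1 as well, and 9 of 10 erythroid markers were lower by unadjusted p in knockout embryos, with a median of -1.43. Macrophage markers had a median of -1.23 with 3 of 10 lower. Without wild-type 1 the erythroid median was -0.94 with 5 of 10 lower, and the macrophage median -0.94 with 0 of 10 lower. The part of these cells in the levels of Tal1 and Lyl1 was not tested. The higher factor was Etv2, an early ETS factor of the lineage, at 0.779 ± 0.755 against 0.115 ± 0.1496 CPM (SD, n = 4 each). These levels are near the floor, and the SD in knockout embryos is close to their mean. Etv2 differed by 2.715 ± 1.166 (SE, edgeR, adjusted p = 0.597). It was named after its value was seen. The abundant factors Ets1 and Ets2 differed by 0.01 and 0.24.

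The genes whose log2 CPM followed the mean of the 10 genes most closely were Ldlrad3, Grb10, Taf15, Usp29, Rad23b, Copg2, Hirip3, Sorcs2, Dysf and Tbc1d5, with Pearson r from 0.930 to 0.948 over 12 embryos. None of them is in the endothelial lists. All 10 had their highest value in the library labelled heterozygous 2, and without it the 10 closest genes were others, led by Gm7694, Dr1 and Hmga2 with r from 0.924 to 0.962.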

How the data were processed

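RNA of 12 whole embryos was measured, each a separate animal. The authors deposited estimated counts (expected counts, not normalized) for 41079 genes. Per the file headers, featureCounts 2.0.6 assigned reads to RefSeq genes of GRCm39 without regard to strand, counting each mate separately and splitting reads that map to several places or genes into fractions, so overlapping and near-identical genes share reads. DRAGEN is listed by the submitters' processing notes, and its role is not given in the sources used here. The labels' protocols give 325 ng of RNA per library, a stranded kit and added spike-ins, for which the table held 0 rows.

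The counts were rounded and genes with low counts were dropped (filterByExpr, 20771 genes left). After TMM scaling, genotypes were compared by a robust quasi-likelihood fit to all 12 embryos, with two-sided p adjusted over all genes by Benjamini-Hochberg (edgeR 4.0.16, R 4.3.3). A standard error is the log2 difference divided by the root of F. The log2 CPM used a prior count of 2, and correlations 100000 permutations (scipy 1.17.1). An exact test of 4 against 4 embryos cannot go below a p of 0.0286. Library totals were 53133084 to 67977990 counts, and 4 embryos per genotype limit the precision. The tools were tested on simulated data. Alternatives were DESeq2 1.42.0, limma 3.58.1 voom with sample weights, other scalings and filters, the title number, Xist or the stage index in the fit, and embryos left out. The 10 genes and all lists were chosen with earlier results of these data known, so no list is independent evidence. Besides the 10 genes and Mfsd12, the text names the 2 genes most abundant per length and the 2 with the smallest p of each pathway list, and the 10 genes most correlated with the mean of the 10. Promoters are RefSeq entries on GRCm38.p6 and were not joined to coordinates of GRCm39. A planned comparison of protein sequences was not run.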

Additional observations from a re-analysis of the deposited data

Results flagged for a closer look

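In 33 groups of 4 embryos (10 genes and Mfsd12 in 3 genotypes), 2 held an embryo far from the other 3. Chance alone gives about 1 in 20 groups, so 2 of 33 is close to the number that chance gives. Both of these embryos were the library labelled heterozygous 2, in Flt1 and Pecam1. Both values come from the same library, so they are not counted as 2 separate events. The r of the 2 genes, 0.86 over 12 embryos, was 0.58 without this library and adds nothing to that. Flt1 was at 107.4 CPM there against 14.1 to 27.1 in the other heterozygous embryos, a gap of 0.861 of the whole range. Pecam1 was at 150.4 CPM there against 44.8 to 55.4 in the others, a gap of 0.900 of the whole range. Both gaps were above Dixon's 95% critical value for 4 samples.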

How the results depend on the processing

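Estimates near 0 changed sign easily, and 0 of the 10 genes passed an adjusted p of 0.05 by edgeR, DESeq2 or limma voom. The signs that turned are given by setting, as log2 differences, and the cause was not tested. With limma voom, knockout against wild-type gave Kdr -0.015, Sox18 0.008, Cldn5 0.158 and Nrp2 -0.135, knockout against heterozygous gave Flt1 0.154, Tie1 0.005 and Pecam1 0.017, and heterozygous against wild-type gave Tek -0.124, Tie1 -0.078, Cldn5 0.189 and Erg 0.181. With the stage index, knockout against wild-type gave Kdr -0.15, Flt1 -0.121, Tek -0.022, Pecam1 -0.023, Sox18 0.149, Cldn5 0.175, Angpt2 -0.421, Angpt4 -0.152, Lyve1 0.359, Ephb4 0.164 and Nrp2 -0.005, and knockout against heterozygous gave Tek -0.032 and Cldn5 0.284. With the title number as a replicate block, knockout against wild-type gave Tie1 0.038 and Angpt2 -0.189, knockout against heterozygous gave Cldn5 0.093, and heterozygous against wild-type gave Tek -0.066, Tie1 -0.118, Eng -0.111 and Cldn5 0.213. Without both embryos of title number 14 (chosen after seeing the data), knockout against wild-type gave Tie1 0.006, Angpt1 -0.044 and Ets1 -0.052, knockout against heterozygous gave Flt1 0.251, Tie1 0.047 and Cdh5 0.064, and heterozygous against wild-type gave Tek -0.043, Tie1 -0.041, Eng -0.003, Cldn5 0.096 and Erg 0.003. Without the library labelled heterozygous 2, knockout 3 and wild-type 1 (chosen after seeing the data), knockout against wild-type gave Cldn5 0.058, Nrp2 -0.181, Angpt1 -0.048, Id3 0.107, Egfl7 0.069 and Ets1 -0.062, knockout against heterozygous gave Kdr 0.004, Flt1 0.431, Cdh5 0.173 and Pecam1 0.049, and heterozygous against wild-type gave Flt1 -0.077, Tek -0.171, Tie1 -0.086, Pecam1 -0.006, Eng -0.049, Cldn5 0.222 and Erg 0.002. A stricter count filter gave Cldn5 0.002 and Xist as a covariate 0.084 in knockout against heterozygous, Xist gave Eng -0.071 in heterozygous against wild-type, and library totals without TMM gave Tek -0.053 and Tie1 -0.006 there. In knockout against wild-type, Ets1 was -0.01 with Xist and with library totals.

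With single embryos left out, log2 differences of knockout against wild-type ranged from -0.063 to 0.331 for Kdr, -0.062 to 0.021 for Tie1, -0.235 to 0.07 for Sox18, -0.293 to 0.061 for Cldn5, -0.096 to 0.158 for Nrp2, -0.045 to 0.216 for Angpt1, -0.217 to 0.005 for Foxo1, -0.471 to 0.052 for Id3, -0.238 to 0.008 for Egfl7, -0.006 to 0.131 for Cd34 and -0.093 to 0.129 for Ets1. Those of knockout against heterozygous ranged from -0.935 to 0.328 for Flt1, -0.107 to 0.022 for Tie1, -0.305 to 0.079 for Cdh5, -0.678 to 0.072 for Pecam1, -0.069 to 0.164 for Eng and -0.236 to 0.326 for Cldn5. Those of heterozygous against wild-type ranged from -0.11 to 0.15 for Tek, -0.043 to 0.091 for Tie1, -0.004 to 0.22 for Eng, -0.462 to 0.093 for Cldn5 and -0.148 to 0.045 for Erg. The other log2 differences kept their sign in these fits.

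Over all genes, edgeR called 0 in each comparison at an adjusted p of 0.05, and 1730, 1537 and 209 at an unadjusted p under 0.05 (knockout against wild-type, knockout against heterozygous and heterozygous against wild-type). DESeq2 called 122, 65 and 4, and limma voom 0, 0 and 0. With the title number as a replicate block 8, 1 and 5 genes were called, and 1006 and 505 had an unadjusted p under 0.05 in the 2 comparisons with heterozygous embryos. Without the 3 embryos named above 23 and 115 were called in the comparisons with knockout embryos (2756 and 3406 by unadjusted p), and without number 14, 1 in knockout against wild-type and 96 by unadjusted p in heterozygous against wild-type. By unadjusted p, the unfiltered table gave 2661 in knockout against wild-type and 553 in heterozygous against wild-type. The stage index gave 464 in knockout against wild-type and 845 in knockout against heterozygous, Xist 721 in knockout against heterozygous and 79 in heterozygous against wild-type, and limma voom 2565 and 647 in these 2. Leaving out single embryos gave 839 to 2872, 763 to 2447 and 107 to 701, and 0 to 1, 0 to 1 and 0 to 0 calls by adjusted p.

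Of the 10 genes, 1 had an unadjusted p under 0.05 in heterozygous against wild-type. That number was 0 with limma voom, library totals, no filter, only the 8 embryos compared, the replicate block, Xist, the stage index, and both fits chosen after seeing the data. With single embryos left out it was 0 to 4, and 0 to 1 in each of the other 2 comparisons. Pairs passing by Pearson's r, 10 positive and 4 negative, were 5 and 1 without TMM and 4 to 10 and 0 to 5 with single embryos left out. By Spearman's rho 1 positive pair became 2 without TMM and 0 to 4 with single embryos left out. Within title numbers 4 and 18 the r of Cldn5 with Kdr was -0.26 against -0.79 over 12 embryos (chosen after seeing the data). The labels give no replicate numbers, and the block pairs embryos only by a title number of unstated meaning. Fits with this block kept only embryos whose number occurs in both genotypes compared. The planned protein comparison and correlations within title numbers (4 embryos each) were not run.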
